A study of Homo sapiens with 8 samples.

Results

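The U1 small nuclear RNA (snRNA) gene loci were taken as the ATAC-seq peaks that lay no more than 1 kb from an end of a RefSeq gene whose symbol begins with RNU1- or RNVU1-. The rule found 40 of the 129536 peaks in the table. ATAC-seq measures open chromatin, by how often a transposase inserts sequencing adapters into the DNA of nuclei. The U1 genes were selected on the sorbitol-to-vehicle change, since the peaks at RNU1-1 and RNU1-2 were among those with the smallest p-values in an earlier analysis of the same table. Their change is therefore described with its error and carries no test. Vehicle levels enter that contrast, and high counts favour small p-values, so the levels of these genes are a description as well. Positions, flanking peaks and the peaks of other genes did not enter this choice by p-value. The lists of genes that build or process U1 were drawn up with earlier results of these data known.

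U1 snRNA is the RNA core of the U1 small nuclear ribonucleoprotein (snRNP), which pairs with the 5′ splice site of messenger RNA precursors at the start of spliceosome assembly and also protects long transcripts from premature cleavage. Its genes are short and intronless. RNA polymerase II transcribes them from compact promoters that hold a distal and a proximal sequence element, the latter bound by the SNAPc complex, and the Integrator complex cleaves the nascent RNA at the 3′ end. RNU1-1 to RNU1-4 encode the main U1 RNA, RNVU1 genes are named as variants of it, and many scattered copies are classed as pseudogenes.

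The cells were HEK293, a human embryonic kidney line, with the genotype eGFP-YAP, a fusion of green fluorescent protein to the transcriptional co-regulator YAP. Titles name the line alone, and how eGFP-YAP is expressed, or whether the line is 1 clone, is not given in the labels. The 4 vehicle libraries came from eGFP-YAP cells given vehicle, and the 4 sorbitol libraries from eGFP-YAP cells given 0.2 M sorbitol, a solute that makes cells lose water, for 1 h. The series description gives 1 h of serum starvation before sorbitol, and does not say whether vehicle cells were starved. Each library used 50000 cells. The labels do not say whether libraries came from separate cultures, so every error and p-value covers the spread between these libraries, which may be technical. In bulk ATAC-seq, fewer cells with an open site and a less open site per cell cannot be told apart.

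The RefSeq promoter table (GRCh38.p14) had an entry of its own for 0 of the 144 U1 genes, but 3 peaks over a U1 gene also hold the start window of a neighbouring long non-coding RNA. These windows of 300 bases are shown because they are, or were taken to be, the DNA just upstream of a U1 gene. Each lies inside a peak that was lower after sorbitol. Each is written 5′ to 3′ in the direction of the U1 gene. The gene table gives no strand. The direction at RNU1-28P is that in which its last 31 bases open with the well known 5′ end of U1. The other windows lie, like that one, beyond the high-numbered end of their gene, and were taken to be upstream of it. Their strand and their distances upstream rest on that. So turned, the RNVU1-2A window shares GTGACCGTG with the RNU1-28P window, and the RNVU1-6 window aligns with RNVU1-2A in the same direction. Capitals mark the motifs named below and, in the first window, the start of the U1 copy.
RNU1-28P, chr14:34556359-34556658, minus strand: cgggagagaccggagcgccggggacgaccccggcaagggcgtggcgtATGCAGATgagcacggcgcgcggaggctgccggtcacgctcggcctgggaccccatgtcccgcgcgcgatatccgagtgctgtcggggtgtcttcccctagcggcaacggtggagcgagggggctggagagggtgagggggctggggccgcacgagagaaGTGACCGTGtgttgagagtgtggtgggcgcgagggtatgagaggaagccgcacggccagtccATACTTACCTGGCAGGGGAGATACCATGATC
RNVU1-2A, chr1:144551965-144552264, minus strand: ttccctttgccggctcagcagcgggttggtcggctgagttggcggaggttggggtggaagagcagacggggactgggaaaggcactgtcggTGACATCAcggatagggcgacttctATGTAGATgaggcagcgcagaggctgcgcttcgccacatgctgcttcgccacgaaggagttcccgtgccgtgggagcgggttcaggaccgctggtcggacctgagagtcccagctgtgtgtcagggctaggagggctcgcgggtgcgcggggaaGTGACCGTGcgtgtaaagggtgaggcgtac
RNVU1-6, chr1:146052346-146052645, minus strand: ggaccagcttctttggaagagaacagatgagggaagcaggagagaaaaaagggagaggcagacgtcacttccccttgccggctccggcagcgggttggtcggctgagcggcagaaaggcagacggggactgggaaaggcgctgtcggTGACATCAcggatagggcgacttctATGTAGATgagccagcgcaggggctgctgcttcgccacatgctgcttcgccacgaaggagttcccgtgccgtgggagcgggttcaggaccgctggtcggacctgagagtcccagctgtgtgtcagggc
The RNU1-28P window reached from 269 bases upstream of the gene to 31 bases into it. The RNVU1-2A window began 321 bases upstream and stopped 22 bases short of the gene, and the RNVU1-6 window stopped 102 bases short. The letter patterns below were chosen after the shared letters were seen and searched on both strands, with no overlap between their matches. GTGACCGTG lay 62 bases upstream of RNU1-28P and 51 bases upstream of RNVU1-2A, near where a proximal element sits in snRNA genes. It was found in 34 of 35116 RefSeq promoter windows (0.0968%). ATGNAGAT, which resembles the octamer of distal elements, lay 222, 205 and 229 bases upstream of RNU1-28P, RNVU1-2A and RNVU1-6, and was in 2.75% of all windows. TGACNTCA, which resembles a cyclic AMP element, lay 230 bases upstream of RNVU1-2A and 254 bases upstream of RNVU1-6, and was in 7.72%. The octamer ATGCAAAT itself, in 1.77% of all windows, matched in none of these windows. These matches describe letters and show no binding.

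Counts in peaks ranged from 11522266 to 19831471 per library, and values below are counts scaled to library size (CPM) with trimmed-mean-of-M-values (TMM) factors. Among HEK293 marker genes, LHX1 and EMX2 had a peak at a gene end, with vehicle levels of 15.02 and 32.7 CPM, and PAX2 had none. Among markers of other cell types, PTPRC had a peak at 1.19 CPM, and CD3E, ALB and HBB had none. Libraries vehicle 4 and sorbitol 4 stood apart. Vehicle 4 was the lowest vehicle library at 23 of the 25 peaks that overlap a U1 gene, and sorbitol 4 the highest sorbitol library at 14 of them. Values without both are given beside the sums.

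RefSeq lists 144 genes with these symbols, and 40 of them had a peak, each peak lying near 1 U1 gene only. All 4 main genes had one, as did 20 of 25 RNVU1 genes and 16 of 115 pseudogenes named RNU1- with a final P. The peak overlapped the gene itself at 4 main genes, 18 RNVU1 genes and 3 pseudogenes, and lay beside the gene at the other 15. It held the whole gene at 24 of these 25, and at RNU1-124P it held 37 of the 145 bases. RNVU1-1, RNVU1-17, RNVU1-24, RNVU1-26 and RNVU1-32 had no peak within 1 kb. RNU1-27P, RNU1-28P and RNU1-124P were the pseudogenes that a peak overlapped. On chromosome 1 lay 26 of the 40 peaks, and 15 of the 40 were also within 1 kb of an end of a gene that is not a U1 gene. U1 copies are known to be near-identical in part, and whether reads that fit several of them were dropped, placed at random or counted more than once is not given in the sources used here. Single loci are therefore less certain than sums over copies. The longest run of letters shared by the RNVU1-2A and RNVU1-6 windows was 100 bases, longer than the 75-base reads, and 223 of 245 aligned positions (91.0%) were identical. RNU1-28P shared at most 12 bases in a run with RNVU1-2A.

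After sorbitol, 29 of the 40 U1 peaks were lower and 0 were higher by the adjusted threshold of 0.05 (edgeR quasi-likelihood test, Benjamini-Hochberg adjustment over 129487 tested peaks). No U1 peak was higher at an unadjusted p under 0.05 either, and DESeq2 called 29 lower and 0 higher. The background was 13.1% lower and 16.0% higher over all tested peaks. Among peaks within 1 kb of an end of any RefSeq gene, called gene-boundary peaks here, it was 32.8% lower and 8.74% higher. All 4 sorbitol libraries lay under all 4 vehicle libraries at 31 U1 peaks, against 30.8% of gene-boundary peaks. Since this contrast chose the genes, these counts are a description. Peaks that overlap a U1 gene were lower in 24 of 25 cases and peaks beside one in 5 of 15. The log2 fold change, sorbitol over vehicle, was at most -1 among called peaks at 17 of the 40, 13 of them overlapping a gene. The background at that fold cut was taken only for the strongest 10% of gene-boundary peaks, given below. There it was 24 of 2521 (0.952%), and 11 of those 24 were U1 peaks. Those 11 came from the 17 U1 peaks of that strength. The other 2-fold falls, some of them at weak peaks, have no background share here. The choice of genes by this contrast favours all of these counts. The count of lower U1 peaks was also 29 without vehicle 4 and sorbitol 4.

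RNU1-1, a main U1 gene, had its peak at chr1:16512983-16514701 (GRCh38), over the whole gene at chr1:16514122-16514285. The peak held 184, 186, 182 and 162 CPM in vehicle libraries 1 to 4, and 70.2, 78.0, 64.4 and 81.6 CPM in sorbitol libraries 1 to 4. Every sorbitol library was far below every vehicle library, with vehicle 4 the lowest of its group and sorbitol 4 the highest of its own. Mean levels were 178.5 ± 10.9 and 73.5 ± 7.73 CPM (SD, n = 4), so 41.2% was left, and the log2 fold change was -1.28 (standard error 0.08).

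RNU1-2, at chr1:16895980-16896143 inside a peak at chr1:16895709-16897132, had the strongest change of the main genes. Its vehicle libraries held 175, 175, 155 and 146 CPM, and its sorbitol libraries held 64.6, 67.7, 60.3 and 65.5. The sorbitol values lay close together and the vehicle values fell into an upper and a lower pair. These pairs, vehicle 1 and 2 and vehicle 3 and 4, also differ in a number in their library names. The sorbitol libraries are divided by that number in the same way, and its meaning is not given. Means were 162.6 ± 14.6 and 64.5 ± 3.09 CPM (SD, n = 4). This left 39.7%, and the log2 fold change was -1.33 (standard error 0.08).

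RNU1-3, at chr1:16666785-16666948 inside a peak at chr1:16665903-16667450, held 167, 184, 167 and 144 CPM in vehicle libraries 1 to 4. Sorbitol libraries 1 to 4 held 73.8, 82.3, 77.6 and 79.6 CPM. Again the groups were apart, and vehicle 2 and vehicle 4 were the extremes of the vehicle group. Means were 165.4 ± 16.6 and 78.3 ± 3.59 CPM (SD, n = 4), and the log2 fold change was -1.08 (standard error 0.08).

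RNU1-4, at chr1:16740516-16740679 inside a peak at chr1:16740028-16741670 that also lies at an end of the long non-coding RNA LOC124903859, held 169, 176, 166 and 151 CPM in vehicle. The sorbitol libraries held 79.7, 82.7, 79.4 and 82.2 CPM, the tightest group among the main genes. Means were 165.6 ± 10.4 and 81.0 ± 1.68 CPM (SD, n = 4). This left 48.9%, and the log2 fold change was -1.03 (standard error 0.07). Among the main genes, RNU1-1 and RNU1-2, which chose the family, had the more negative values. Main genes thus kept between 39.7% and 48.9% of their vehicle level.

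**Figure D1:**
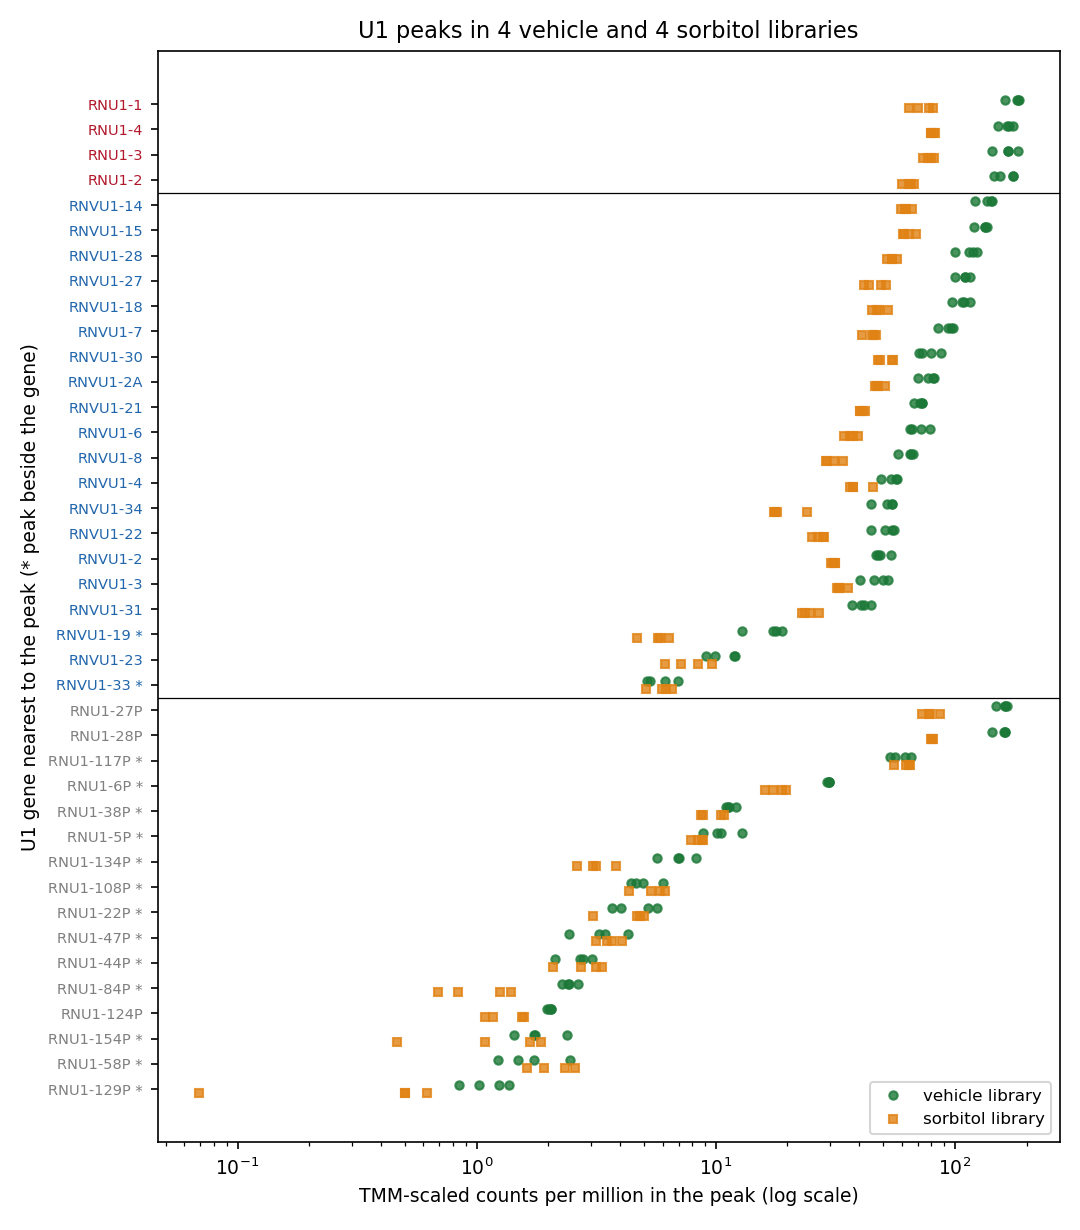
Each row is 1 U1 peak and each point 1 library, with TMM-scaled CPM on a log axis (circles vehicle, squares sorbitol), in 3 blocks: main genes, RNVU1 genes and pseudogenes, each sorted by vehicle level. The groups are apart at all 4 main genes (162.6 to 178.5 CPM in vehicle, 64.5 to 81.0 in sorbitol), while they overlap at RNU1-117P and at 6 other pseudogene peaks marked with a star (beside the gene).

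Vehicle levels were compared between loci per kb of peak. The order over the 25 overlapped genes opened with RNU1-2 at 114.2 ± 10.2 CPM per kb (SD, n = 4), then RNU1-3 at 106.9, RNU1-1 at 103.9 and RNU1-4 at 100.8. None of these neighbours differed by more than the larger of their SDs. A gap wider than the SDs separated RNU1-4 from RNU1-27P at 85.7, and RNU1-27P, RNVU1-15 (84.3) and RNU1-28P (82.1) formed the next run without such a gap. RNVU1-14 (73.8) and RNVU1-27 (67.4) each stood apart from both neighbours. From RNVU1-2A at 62.1 down to RNVU1-21 at 50.7, and from RNVU1-22 at 45.5 down to RNVU1-3 at 35.9, no neighbours were separated. RNVU1-31 (26.9), RNVU1-23 (10.4) and RNU1-124P (6.81) closed the order, each apart from the one above. By CPM per peak, the main genes stood above 99.8% of gene-boundary peaks, whose median was 11.9 CPM, a standing that the choice by p-value favours.

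RNVU1 genes are named as variants of U1, and their sequences were not compared with those of the main genes here. They were lower at 19 of 20 peaks. Their median log2 fold change was -0.93, beside 0.01 over all tested peaks and -0.17 over gene-boundary peaks. RNVU1-14, at chr1:145280588-145282426, had the highest vehicle level of the RNVU1 genes. It held 136, 141, 144 and 121 CPM in vehicle and 59.7, 62.7, 62.1 and 66.6 in sorbitol. Its groups were apart, with a log2 fold change of -1.11 (standard error 0.08). RNVU1-15 went from 131.6 to 63.8 CPM, RNVU1-28 from 114.9 to 54.7, RNVU1-27 from 109.3 to 46.6, RNVU1-18 from 107.6 to 48.4 and RNVU1-7 from 93.7 to 44.9. These 5 loci had log2 fold changes between -1.04 and -1.23, and in each of them the groups were apart.

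The RNVU1 peaks of intermediate strength showed smaller changes as well as equal ones. RNVU1-8 (64.0 to 31.0 CPM) had a log2 fold change of -1.05, RNVU1-6 (70.7 to 37.1) of -0.93, RNVU1-22 (51.5 to 27.2) of -0.93 and RNVU1-21 (71.5 to 41.0) of -0.80. RNVU1-31 (41.1 to 24.7), RNVU1-2A (77.7 to 48.2) and RNVU1-2 (49.5 to 31.1) had -0.73, -0.69 and -0.67. The weakest changes among those with separate groups were at RNVU1-30 (-0.59), RNVU1-3 (-0.50) and RNVU1-4 (-0.46), which kept 66.5%, 70.6% and 72.5%. At RNVU1-4 the sorbitol libraries held 36.6, 37.7, 37.7 and 45.8 CPM, so the high value of sorbitol 4 raised the mean. RefSeq gives RNVU1-2, RNVU1-21, RNVU1-22, RNVU1-23, RNVU1-33 and RNVU1-34 the biotype pseudogene, and 5 of these 6 were lower, as were all 14 with a peak and the biotype snRNA.

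RNVU1-34 on chromosome 17, at chr17:58679527-58679690, and RNVU1-33 on chromosome 6 were the RNVU1 peaks outside chromosome 1. RNVU1-34 held 54.9, 54.6, 52.3 and 44.6 CPM in vehicle, and 18.1, 24.1, 17.7 and 17.5 CPM in sorbitol. Its log2 fold change of -1.41 (standard error 0.10) was the most negative among the 25 peaks that overlap a U1 gene. RNVU1-19 had the most negative value of all 40, at -1.56 (standard error 0.13), with 19.0, 17.95, 17.4 and 12.9 CPM in vehicle and 5.75, 5.83, 4.69 and 6.39 in sorbitol. Its peak ends 1 bp before the gene. By contrast RNVU1-33, whose peak lies 616 bp from the gene, went from 5.90 ± 0.847 to 5.97 ± 0.613 CPM (SD, n = 4) with overlapping groups. RNVU1-23 went from 10.8 ± 1.49 to 7.85 ± 1.52 CPM with overlapping groups. It passed the threshold with a log2 fold change of -0.46, and did not with gene-boundary scaling (-0.29) or without sorbitol 2 (-0.36).

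Pseudogene copies were lower at 6 of 16 peaks, a share near the 32.8% of all gene-boundary peaks, with a median log2 fold change of -0.42. RNU1-27P and RNU1-28P on chromosome 14 had levels like those of the main genes. RNU1-27P held 165, 163, 163 and 149 CPM in vehicle and 72.8, 79.2, 78.3 and 86.5 in sorbitol. RNU1-28P, whose upstream DNA is printed above, held 163, 162, 163 and 143 CPM in vehicle and 80.7, 79.8, 81.1 and 80.4 in sorbitol. Groups were apart at both, and the log2 fold changes were -1.01 and -0.97 (standard errors 0.07). The label pseudogene is RefSeq's, and accessibility does not show whether a copy is transcribed.

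The other 14 pseudogene peaks were weaker, and 13 of them lay beside the copy. The strongest, RNU1-117P, held 56.5, 62.2, 65.6 and 53.4 CPM in vehicle and 55.6, 64.5, 62.9 and 65.4 in sorbitol, with overlapping groups. This peak also lies at an end of KITLG, which encodes the KIT ligand, and its log2 fold change was 0.06 (standard error 0.08). It passed the threshold as higher with gene-boundary scaling (0.24) and with the loess offset (0.26). RNU1-6P, beside a glutamate tRNA gene and LINC01783, held 29.9, 29.4, 29.8 and 29.9 CPM in vehicle and 19.7, 19.0, 16.1 and 17.3 in sorbitol, a log2 fold change of -0.72. RNU1-38P went from 11.48 ± 0.495 to 9.73 ± 1.10 CPM (SD, n = 4) and did not pass, although its groups were apart.

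RNU1-134P (6.99 to 3.18 CPM), RNU1-84P (2.46 to 1.04) and RNU1-129P (1.12 to 0.423) had log2 fold changes of -1.13, -1.24 and -1.42. Their standard errors of 0.17, 0.28 and 0.41 were wider than those of the strong peaks. RNU1-129P no longer passed without sorbitol 4 (-1.04), which was the lowest sorbitol library there, at 0.0687 CPM. On either side of the class median, RNU1-5P had -0.32 and RNU1-154P had -0.51, and neither passed. RNU1-5P did pass as lower without vehicle 4 (-0.39) and with 2 other scalings, and RNU1-124P (2.02 to 1.35 CPM) passed with the loess offset alone. The highest values, 0.29 at RNU1-58P, 0.11 at RNU1-108P, 0.10 at RNU1-47P and 0.08 at RNU1-44P, came from peaks whose groups overlapped. RNU1-22P was also flat within its spread, at 4.65 ± 0.950 and 4.399 ± 0.890 CPM (SD, n = 4).

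Summed over all 40 peaks, the vehicle libraries held 2570, 2657, 2555 and 2285 CPM and the sorbitol libraries 1266, 1316, 1270 and 1371. Group means were 2516 ± 161 and 1306 ± 48.8 CPM (SD, n = 4), so 51.9% was left, a log2 ratio of -0.94. Without vehicle 4 and sorbitol 4 it was -1.03. A sum over copies does not depend on how reads were shared out among the copies that have a peak. It does depend on whether such reads were dropped, counted more than once or placed at copies without a peak. Sums and ratios by class also depend on sharing between classes.

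By class, the main genes summed to 672 ± 50.3 CPM in vehicle and 297 ± 14.6 in sorbitol, with 44.2% left (log2 ratio -1.17, and -1.26 without vehicle 4 and sorbitol 4). RNVU1 genes went from 1383 ± 92.8 to 725 ± 29.6 CPM, with 52.4% left (-0.93, and -1.02 without them). Pseudogenes went from 461 ± 19.9 to 284 ± 8.89 CPM, with 61.6% left (-0.70, and -0.76 without them). The pair RNU1-27P and RNU1-28P made up 318 CPM of that vehicle sum and kept 50.3% (-0.99). The other 14 pseudogene peaks went from 143 ± 4.38 to 124 ± 4.01 CPM (SD, n = 4), with the groups apart and 86.6% left (-0.21). RNU1-117P, the peak at KITLG, held 59.4 CPM of that vehicle sum, and without it the remaining 13 kept 73.9% (-0.44), a division chosen after seeing the data. Division by peak position gave -1.004 for the 25 overlapping peaks and -0.29 for the 15 beside a gene.

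**Figure D2:**
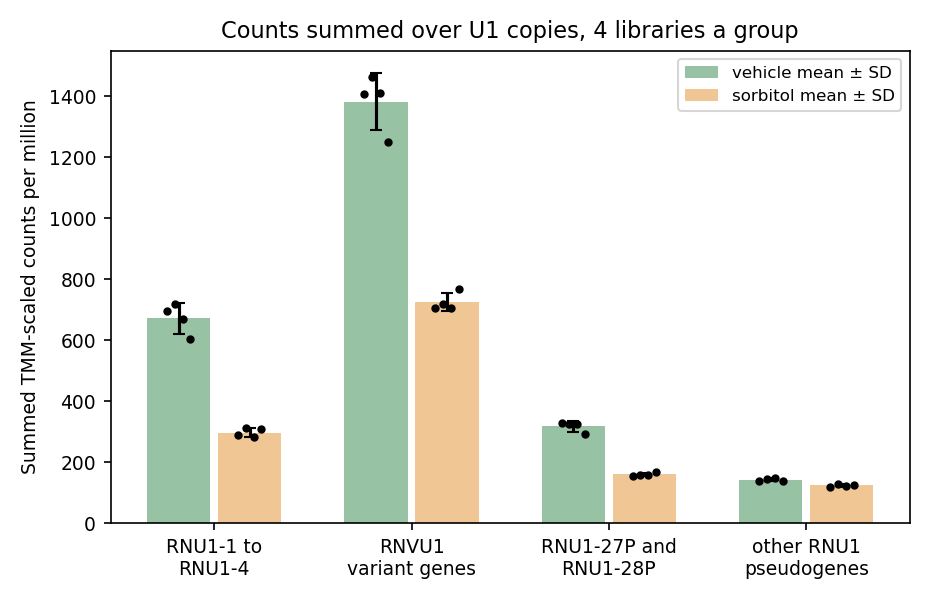
Bars give the mean summed CPM of a class in vehicle (left bar of each pair) and sorbitol libraries, error bars the SD over 4 libraries, and points the single libraries. The main genes go from 672 to 297 CPM and the RNVU1 genes from 1383 to 725, while the pseudogenes other than RNU1-27P and RNU1-28P go from 143 to 124 CPM.

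Ratios within a library do not depend on the library factor. The main genes held 1.49, 1.53, 1.41 and 1.40 times the pseudogene sum in vehicle libraries 1 to 4, and 1.06, 1.08, 0.999 and 1.05 times in sorbitol. The groups were apart, and the mean log2 ratio differed by -0.48. Against RNU1-27P and RNU1-28P alone, the ratio went from 2.11 ± 0.0758 to 1.86 ± 0.0771 (SD, n = 4), a log2 difference of -0.18, and against the other 14 pseudogene peaks that difference was -0.97, or -0.74 with RNU1-117P left out too. Against the RNVU1 sum the ratio went from 0.486 ± 0.00887 to 0.410 ± 0.0152, a log2 difference of -0.24, and the groups were again apart. These ratios use the contrast that chose RNU1-1 and RNU1-2, so they too are descriptions.

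Peak strength moved with the change. Over the 25 overlapping peaks, the Spearman correlation between vehicle CPM per kb and log2 fold change was -0.62. Vehicle values enter both, and the same 8 libraries and shared copies lie behind all points. Against sorbitol CPM per kb it was -0.33, and against peak width -0.56. In the table as a whole, the strongest 10% of gene-boundary peaks (mean of at least 47.5 CPM over 8 libraries, 2521 peaks) was called lower in 48.5% and higher in 4.48%, with a median log2 fold change of -0.19. Among these strong peaks were 17 U1 peaks, of which 16 were lower and RNU1-117P was not called, with a median of -1.04. A called change of at least 2-fold downwards was found at 24 of the 2521 strong peaks, and 11 of those 24 were U1 peaks. The contrast that chose the U1 genes favours that share, so it is a description. Of the 11 peaks at U2, U4 or U5 genes with the biotype snRNA, taken at any strength, 4 also fell at least 2-fold. The strength comparison was chosen after seeing the data. With a loess offset, built to take out any trend with strength, the summed log2 ratio was -0.74 over all U1 peaks and -0.95 over the main genes, and 30 U1 peaks were lower and 1 higher.

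**Figure D3:**
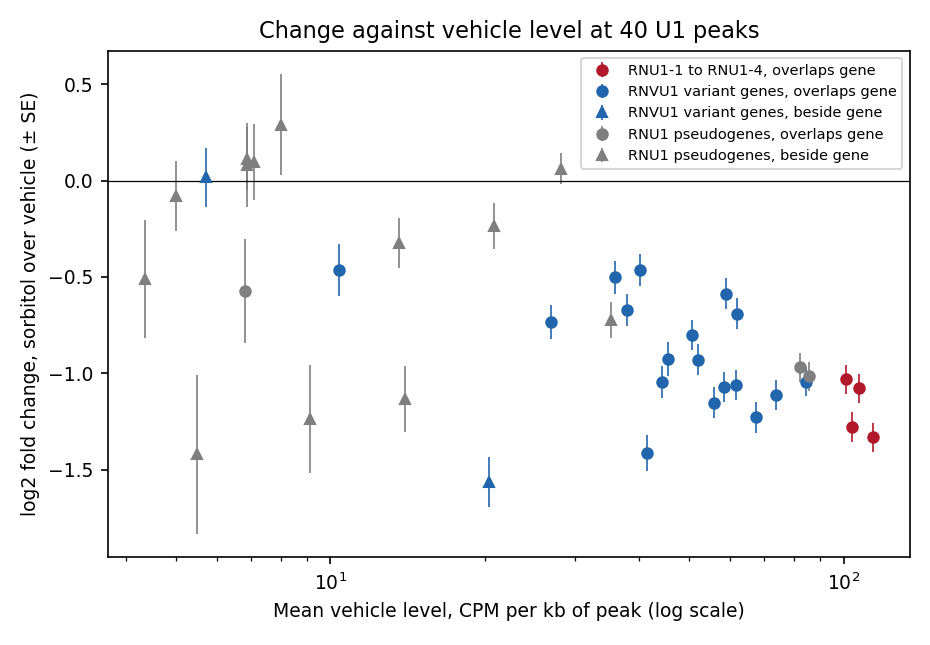
Each symbol is 1 of the 40 U1 peaks, with mean vehicle CPM per kb of peak on a log axis, the log2 fold change on the vertical axis and bars of 1 standard error; circles mark peaks that overlap the gene and triangles those beside it. The main genes lie at the right, between -1.03 and -1.33, and the values at or above 0 are all triangles.

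Scaling shifted these values together. TMM factors from gene-boundary peaks raised the median of all tested peaks by 0.17 on the log2 scale, and turned 20699 higher and 17016 lower calls into 34041 higher and 8670 lower. Under that scaling 28 U1 peaks were lower. The U1 median relative to all tested peaks was -0.87, as with the main TMM factors. That follows by construction, because a single factor per library shifts all peaks alike. With the loess offset, which varies with peak strength, it was -0.72.

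At the edge of the 1 kb window, the last peak inside was that of RNU1-44P at 862 bp (2.67 to 2.84 CPM). The first outside lay 1004 bp from RNVU1-17 (3.60 to 2.45), then 1047 bp from RNVU1-26 (4.24 to 3.64) and 1064 bp from RNVU1-24 (3.49 to 3.06). A second peak of RNVU1-22, at 1069 bp, held 21.9 ± 2.37 CPM in vehicle and 11.8 ± 1.36 in sorbitol (SD, n = 4).

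Flanking peaks were outside the rule. Of 116 peaks over 1 kb to 10 kb from the nearest U1 gene, 28 fell and 11 rose, with a median log2 fold change of -0.14. Of 559 peaks over 10 kb to 50 kb away, 98 fell and 55 rose, with a median of -0.06. There the 160 gene-boundary peaks held 57 of the falls and 5 of the rises (median -0.17, that of all gene-boundary peaks too), and the other 399 held 41 falls and 50 rises (median -0.02). Over all tested peaks the shares were 13.1% and 16.0%. In the nearer zone the 37 gene-boundary peaks held 17 of the falls and 1 of the rises (median -0.39, beside 32.8% lower, 8.74% higher and a median of -0.17 for all gene-boundary peaks), and the other 79 peaks held 11 falls and 10 rises (median -0.01). The medians of both zones turned positive with gene-boundary scaling, to 0.04 and 0.12, and that of the farther zone with library totals alone, to 0.02.

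Next come the flanking peaks with the smallest p-values in each direction. A peak 34201 bp from RNU1-108P at chr17:58631142-58632336, inside TEX14 and at an end of LOC105371842, fell from 53.0 ± 5.08 to 27.6 ± 1.83 CPM (SD, n = 4), with a log2 fold change of -0.94 (edgeR quasi-likelihood adjusted p = 2.65e-12). A peak at 2 tRNA genes, TRE-CTC1-1 and TRG-TCC2-1, which lies 15811 bp from RNVU1-6, fell from 47.7 to 25.6 CPM (-0.90, edgeR adjusted p = 4.66e-11). The peak at TRN-GTT2-1, an asparagine tRNA gene 5750 bp from RNVU1-27, fell from 54.4 to 31.0 CPM (-0.81, edgeR adjusted p = 1.07e-10). In the other direction, a peak inside DRC8, 30201 bp from RNU1-132P, rose from 6.15 to 13.0 CPM (1.09, edgeR adjusted p = 1.43e-07). Peaks 10653 bp from RNU1-133P and 14694 bp from RNU1-18P rose by 1.03 and 1.74 on the log2 scale (edgeR adjusted p = 1.24e-06 and 1.64e-05). The groups were apart at all 6 of these peaks.

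**Figure D4:**
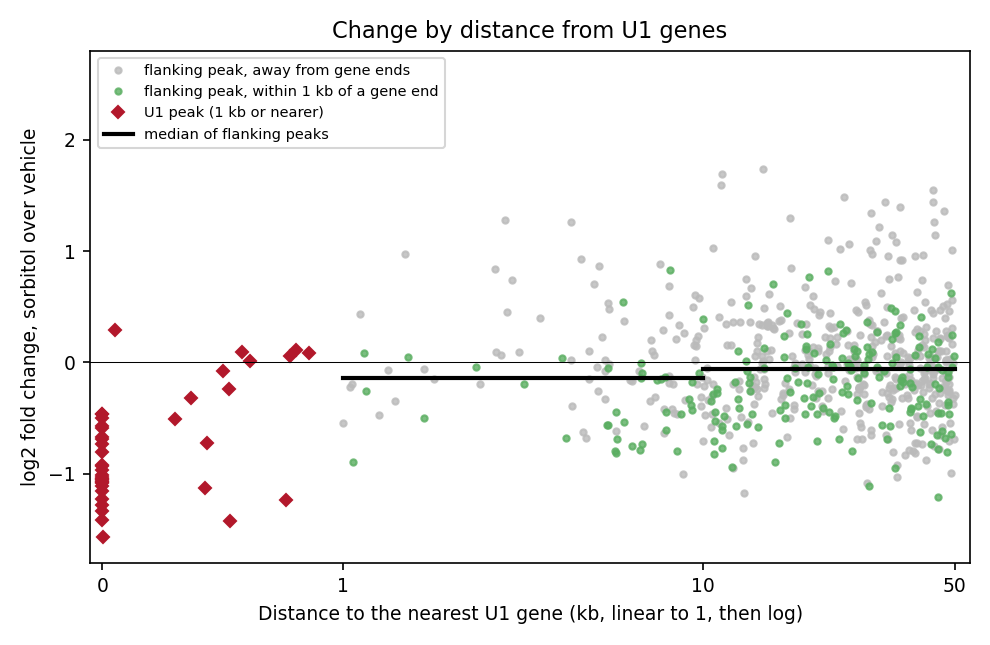
Each point is a peak, with its distance to the nearest U1 gene (linear to 1 kb, then log, up to 50 kb) and its log2 fold change; diamonds are U1 peaks, green points flanking peaks near a gene end, grey points the other flanking peaks, and black lines the medians. Diamonds at distance 0 run from -0.46 to -1.41, below the flanking medians of -0.14 and -0.06, and the diamond at -1.56 is RNVU1-19, 1 bp from its gene.

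Other spliceosomal snRNA genes were read the same way, for values side by side. The 11 peaks within 1 kb of genes of U2, U4 or U5 with the biotype snRNA were lower in 11 of 11 cases, and their sum was 870 ± 78.5 CPM in vehicle and 463 ± 11.4 in sorbitol (SD, n = 4), a log2 ratio of -0.91 with 53.2% left. Their pseudogenes were lower at 10 of 27 peaks and higher at 1. Over gene-boundary peaks 32.8% were lower and 8.74% higher, so the share of lower pseudogene peaks was near that background. Main U1 genes were 0.774 ± 0.0178 of the U2, U4 and U5 snRNA sum in vehicle and 0.643 ± 0.0216 in sorbitol (SD, n = 4), with the groups apart. This ratio too uses the contrast that chose RNU1-1 and RNU1-2, so it is a description. The sum over all U1 peaks kept 51.9%. U6, whose genes RNA polymerase III transcribes from a related promoter, had 4 of 6 snRNA peaks lower, and the sum kept 82.3% (-0.28).

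Genes that build or process U1 were read at their own gene-boundary peaks, from lists of 52 genes, of which 51 had a peak and GEMIN4 had none. Of the 67 peaks, 47 fell and 0 rose, with a median log2 fold change of -0.37, beside 32.8% lower and a median of -0.17 over gene-boundary peaks. At an unadjusted p under 0.05 the edgeR test had 1 higher peak, and DESeq2 called 0 higher. With gene-boundary scaling 31 fell and 5 rose, and with the loess offset 32 fell and 4 rose. The lists were not tested against other genes. They were chosen with earlier results of these data known, so their counts and p-values are a description.

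Protein partners of U1 in the snRNP fell at 11 of 14 peaks (median -0.47). Both peaks of SNRPD2, a core Sm protein whose end is shared with QPCTL, fell: the larger went from 58.0 ± 9.02 to 35.0 ± 1.47 CPM (SD, n = 4; log2 fold change -0.73, edgeR adjusted p = 7.63e-09) and the smaller from 9.12 to 4.20 CPM (-1.12, edgeR adjusted p = 7.17e-08). Factors of snRNA promoters fell at 16 of 23 peaks (median -0.34). SP1, a zinc finger transcription factor, held 110, 112, 99.8 and 94.4 CPM in vehicle and 74.5, 74.2, 65.7 and 72.6 in sorbitol (-0.53, edgeR adjusted p = 3.83e-07). SNAPC4, the large subunit of SNAPc, fell from 8.27 to 4.05 CPM (-1.02, edgeR adjusted p = 1.18e-06). With gene-boundary scaling this list had 8 lower and 3 higher peaks.

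Integrator, which cleaves the end of snRNA transcripts, fell at 14 of 18 peaks (median -0.41). Its member INTS5, which shares an end with GANAB, fell from 38.7 ± 1.10 to 23.7 ± 1.12 CPM (SD, n = 4; -0.70, edgeR adjusted p = 8.61e-09), and INTS1 fell from 4.07 to 1.95 CPM (-1.07, edgeR adjusted p = 0.00023). The little elongation complex, which serves snRNA transcription, fell at 1 of 4 peaks (median -0.05), that of ELL (40.5 to 28.3 CPM, -0.52, edgeR adjusted p = 5.28e-05). The list for Sm loading, the RNA cap and nuclear export fell at 5 of 8 peaks (median -0.26), led by NCBP1, a cap-binding protein that shares an end with TSTD2 (62.2 to 46.7 CPM, -0.41, edgeR adjusted p = 8.15e-05). That list fell at 3 peaks without vehicle 2, at 3 without sorbitol 1 and at 2 with gene-boundary scaling.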

How the data were processed

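Omni-ATAC-seq of 4 vehicle and 4 sorbitol libraries was read as 75 bp pairs, per the labels' protocols. Raw counts were deposited by the authors as 1 table of 129536 peaks by 8 libraries; starts there count from 0, so 1 was added. The submitters' processing notes name Trim Galore 0.6.10, BWA 0.7.17, SAMtools 1.22, Picard, MACS2 2.2.9.1 and DESeq2 with build hg38 (GRCh38). How peaks were merged, and how reads that fit several places were treated, is not given in the sources used here. Members and gene lists were chosen with earlier results of these data known. Some of the cell type markers checked are not reported here.

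Genes came from the RefSeq table of GRCh38.p14, which has no strand. With R 4.3.3 and edgeR 4.0.16, filterByExpr (minimum count 10, minimum total 15) removed 49 peaks, none near a U1 gene, and left 129487. TMM factors and the quasi-likelihood test, with treatment as the only term, gave log2 fold changes, standard errors and p-values, adjusted by the Benjamini-Hochberg method with a threshold of 0.05. On simulated counts for 129487 peaks of which 200 changed 2-fold, 94 were recovered with 6 false calls. The simulation used a fixed spread between libraries and far fewer changed peaks than were called in the data. Its counts therefore do not measure recovery or false calls in the real fit. Gene classes followed symbols. Named were all RNU1-1 to RNU1-4 and RNVU1 peaks, pseudogene peaks of the highest vehicle CPM and extreme or median change, the 3 flanking peaks of smallest p in each direction, and in each list the peak of smallest p and any called and changed at least 2-fold. Promoter windows were aligned with Biopython 1.88.

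Total counts of 11522266 to 19831471 per library make counting error small for strong peaks and large under about 3 CPM. PCR duplicates are not independent molecules. No libraries were duplicates: counts of replicates differed by more than sampling noise (chi-square per degree of freedom 1.86 to 3.04). Deviations of same-numbered libraries correlated at -0.13 to 0.0067, so the numbers were not taken as pairs. Alternatives were DESeq2 size factors, library totals, TMM factors from gene-boundary or other peaks, a loess offset, no filter, the DESeq2 1.42.0 Wald test, a threshold of 0.01, blocks, other windows and each library left out. Blocks were the replicate number or the number in the library names. Chosen after seeing the data were leaving out vehicle 4 and sorbitol 4 together, classes by RefSeq biotype, and leaving out RNU1-27P and RNU1-28P, with or without RNU1-117P.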

Additional observations from a re-analysis of the deposited data

Results flagged for a closer look

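Among 88 groups of 4 libraries (40 peaks and 4 sums, in each treatment), 6 held 1 library whose gap to the nearest of the others was above Dixon's 95% critical share of the group's range. Chance flags about 1 in 20 groups, or 4.4 here. Vehicle 4 was the low library in 4 of them. At RNU1-1 it held 162.2 CPM, where vehicle 1 to 3 held 182.2 to 185.6. At RNU1-27P it held 149.0 CPM against 162.9 to 165.4, and at RNU1-28P 143.1 against 161.6 to 163.0. In the pseudogene sum, which these last peaks dominate, it held 431.2 CPM against 467.7 to 473.8. Sorbitol 4 was high at RNVU1-4, with 45.76 CPM against 36.57 to 37.71. Sorbitol 2 was high at RNVU1-34, with 24.10 CPM against 17.52 to 18.08. Why these libraries differ was not tested.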

How the results depend on the processing

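The limits are that U1 copies are known to be alike in sequence, which was not measured for the genes here, that weak peaks hold few counts, and that each change is relative to the scaling used. Of the 40 U1 loci, 35 kept their side of the threshold under all 18 refits and 0 reversed; RNU1-5P, RNU1-117P, RNVU1-23, RNU1-124P and RNU1-129P changed side. The cause of the moves below was not tested, beyond what each setting removes by construction. The replicate number as a block was not a pairing by the check of deviations; with the block 15626 peaks were lower and 18819 higher in the table, 29 U1 peaks were lower, and no U1 count changed.

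Library totals alone gave summed log2 ratios of -0.86 over all U1 peaks, -0.85 over RNVU1 genes and -0.62 over pseudogenes, flank medians of -0.056 (1 to 10 kb) and 0.024 (10 to 50 kb), and for the gene lists 1 higher peak and a median of -0.29. Gene-boundary TMM factors gave 8670 lower and 34041 higher peaks, 1 higher U1 peak, class medians of -1.003 (main), -0.75 (RNVU1) and -0.24 (pseudogene), sums of -0.77 (all), -0.999, -0.75 and -0.52, near flanks with 22 higher and a median of 0.036, far flanks with 53 lower, 105 higher and a median of 0.12, and lists with 31 lower, 5 higher and a median of -0.20. TMM factors from other peaks gave a pseudogene sum of -0.77, flank medians of -0.21 and -0.13 and a list median of -0.44. The loess offset gave 1 higher U1 peak, class medians of -0.95 (main) and -0.74 (RNVU1), sums of -0.74 (all), -0.95, -0.73 and -0.51, 6 higher near flanks, a far median of -0.091, and lists with 4 higher and a median of -0.22. A threshold of 0.01 left 11036 lower and 12239 higher peaks and 4 higher near flanks.

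Without each library in turn, the pseudogene median ran from -0.49 to -0.29 (the latter without sorbitol 2), higher near flanks from 7 (without sorbitol 2) to 11, the far flank median from -0.087 (without sorbitol 4) to -0.057 and the list median from -0.43 to -0.35. Without vehicle 4 and sorbitol 4 the sums were -1.03 (all), -1.02 (RNVU1) and -0.76 (pseudogene), and the far flank median -0.083.

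With overlapping peaks only, the pseudogene median was -0.97, its sum -0.99 and the main-to-pseudogene log2 difference -0.19, since 3 pseudogene peaks were left. Within 2 kb there was 1 higher U1 peak, class medians were -0.77 (RNVU1) and -0.25 (pseudogene), the pseudogene sum -0.64 and the difference -0.53. Without U1 peaks near another gene, 16 of the 25 left were lower, class medians were -1.28, -1.04 and -0.23, sums -1.03 (all) and -0.83 (pseudogene), and the difference -0.40. RefSeq biotype classes gave medians of -1.05 for snRNA variants (RNVU1) and -0.54 for pseudogenes. Leaving out RNU1-27P and RNU1-28P gave -0.28 for the pseudogene median, -0.21 for the sum and -0.97 for the difference, and leaving out RNU1-117P as well gave -0.44 for the sum and -0.74 for the difference.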
